A study of Homo sapiens with 26 samples.

Results

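BxPC3 is an established human pancreatic ductal adenocarcinoma (PDAC) cell line. In it, a construct induced by doxycycline expressed an HNF4α isoform labelled P1-a2 or one labelled P2-a8. The libraries of these groups, 2 of P1-a2 and 2 of P2-a8, were chosen by their genotype labels and are 4 of the 26 libraries of the series. Cells of every BxPC3 group, including the 2 libraries of the control labelled NC (EV in the titles), received doxycycline at 500 ng/mL, so that dose does not differ between the isoforms in this line. The vector, the promoter that drives it, and whether the cells were a pool or a clone are not given in the sources used here. No label says that replicates were separate cultures, so p-values measure the spread between these libraries, which may be technical.

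HNF4α is a nuclear receptor that binds DNA as a homodimer and is best known as a regulator of hepatocyte and enterocyte genes. The gene has a pair of promoters, P1 and P2, whose transcripts differ in their first exons, so that P1 products carry an amino-terminal activation domain that P2 products lack. P1 products predominate in adult liver and kidney, whereas P2 products are found in stomach, pancreas and fetal tissue, and the intestine makes both. The comparison of P1-a2 with P2-a8 asks which genes separate the isoforms when both are induced on the same background.

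Poly(A) RNA was sequenced and deposited as counts per gene. Totals were 31853102 and 37483772 counts under P1-a2, 34991587 and 33302696 under P2-a8, and 26369154 and 36295663 in NC. Mitochondrial genes took 4.74% and 4.77% of counts under P1-a2, 5.47% and 5.28% under P2-a8 and 5.37% and 5.25% in NC, and the part of this difference in the results was not tested. SMAD4 and CDKN2A, genes known to be deleted in BxPC3, had 0 counts in all 6 BxPC3 libraries, whereas Panc10.05, the other PDAC line in which the isoforms were induced, had at least 890 and 3732 counts. The 8 epithelial markers summed to 10710 and 11450 CPM under P1-a2, 9339 and 9520 under P2-a8, and 8349 and 8094 in NC. CPM is a gene's count scaled by its library's total after adjustment by edgeR's TMM method. Fibroblast markers summed to between 16.4 and 22.0 CPM in all 6 libraries and endothelial markers to between 6.01 and 9.12 CPM. Leukocyte markers summed to between 2.98 and 5.08 CPM and acinar and islet markers to at most 1.08 CPM. The defining markers PTPRC, KDR, COL1A2 and CHGA had at most 5 counts in any BxPC3 library and INS had 0. Of the markers of other cell types, 1 was past the threshold: CD68, at 1.47 and 3 CPM under P1-a2 and 1 and 1.07 under P2-a8, whose call was lost without P2-a8 replicate 1, P2-a8 replicate 2 or P1-a2 replicate 2. In bulk RNA, fewer cells of a type and less RNA per cell cannot be told apart.

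The induced gene was checked first. HNF4A was at 9.76 and 11.6 CPM under P1-a2, 12.6 and 14.2 under P2-a8 and 1.08 and 0.464 CPM in NC, so every induced library was above both NC libraries and both P1-a2 libraries lay below both P2-a8 libraries. The difference between the isoforms was not past the threshold (log2 fold change -0.33, SE 0.17, edgeR adjusted p 0.217, from the quasi-likelihood F test with Benjamini-Hochberg adjustment), and HNF4A was not called under any alternative, with a log2 fold change from -0.20 without P1-a2 replicate 1 to -0.45 without P1-a2 replicate 2. Counts per gene do not separate the transcripts of the promoters. HNF4G, which encodes the paralog HNF4γ, was at 4.14 and 3.03 CPM under P1-a2, 5.03 and 5.14 under P2-a8 and 7.66 and 6.58 in NC, and its difference did not pass either (log2 fold change -0.51, adjusted p 0.0651, edgeR). It passed when no filter on low counts was used (adjusted p 0.0331, edgeR) and without P1-a2 replicate 1 (adjusted p 0.0315, edgeR), where the log2 fold change was -0.74, against -0.28 without P1-a2 replicate 2.

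Of 17635 genes tested, 3963 (22.5%) differed between P1-a2 and P2-a8 at an adjusted p under 0.05, the threshold used throughout. P1-a2 was higher for 2054 (11.6% of genes tested) and lower for 1909 (10.8%). Most differences were small: the median log2 fold change was 0.45 among the higher genes and -0.42 among the lower ones, beside -0.014 over all genes tested. Every count of list members given here is to be read against these shares of 11.6% and 10.8%. Members and lists were chosen with earlier results of these data known, so the shares are a background and test no list. Both P1-a2 libraries lay above both P2-a8 libraries for 29.5% of genes tested, and below both for 31%. Wherever groups are said not to overlap, these shares are the background. The large differences lay mostly on the P1-a2 side. A change of at least 1 on the log2 scale was reached by 400 higher and 126 lower genes, of at least 2 by 151 and 13, and of at least 4 by 18 and 0. Leaving out P2-a8 replicate 1 reduced the count of genes past the threshold to 2538, and leaving out P1-a2 replicate 2 reduced it to 2566.

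Among called genes with a mean of at least 5 CPM over the 4 isoform libraries and groups that did not overlap, those that rose or fell most under P1-a2, 12 in each direction, are shown library by library in the plot of the largest rises and falls. Genes of lower expression with larger fold changes, such as NR1I3 and CIDEC, are described with their lists. APOA2 (chromosome 1, 161222292 to 161223631, GRCh38), an apolipoprotein of high-density lipoprotein, was at 11.1 and 15.6 CPM under P1-a2, 0.429 and 0.582 under P2-a8 and 0 CPM in both NC libraries (log2 fold change 4.72, SE 0.26, edgeR adjusted p 5.57e-06). RBP4 (chromosome 10, 93591687 to 93601744), the plasma carrier of retinol, was at 10.6 and 14.5 CPM under P1-a2 and 0.772 and 0.398 under P2-a8 (log2 fold change 4.40, SE 0.27, edgeR adjusted p 5.57e-06). HEPH (chromosome X, 66162549 to 66268867), the ferroxidase hephaestin that serves iron export from enterocytes, was at 10 and 13.5 and 0.515 and 0.888 CPM (log2 fold change 4.07, SE 0.25, edgeR adjusted p 5.57e-06). For these 3 genes NC was lowest. MMP3 (chromosome 11, 102835801 to 102843803), a secreted metalloproteinase, was at 36.6 and 43.4 CPM under P1-a2 and 3.17 and 2.97 under P2-a8 (log2 fold change 3.70, SE 0.13, edgeR adjusted p 1.4e-07). HHLA2 (chromosome 3, 108296490 to 108378285), a B7-family ligand of T cells, was at 43 and 56.3 and 3.78 and 4.23 CPM (log2 fold change 3.63, SE 0.15, edgeR adjusted p 1.79e-07). CAPN8, a calpain protease of the gastrointestinal tract, was at 15.5 and 16.7 and 2.15 and 2.42 CPM (log2 fold change 2.82). C2orf88, which encodes a small anchor of protein kinase A, was at 13.8 and 13.4 and 2.35 and 1.96 CPM (2.65). The groups of all these genes were separate by the rule that chose them. AKAP12, another kinase anchor, was at 1339.9 and 2035 CPM under P1-a2, 254 and 313 under P2-a8 and 143 and 178 in NC (log2 fold change 2.57, SE 0.29, edgeR adjusted p 0.0119), and its adjusted p became 0.113 without P2-a8 replicate 1 and 0.09 without P2-a8 replicate 2.

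**Figure D1:**
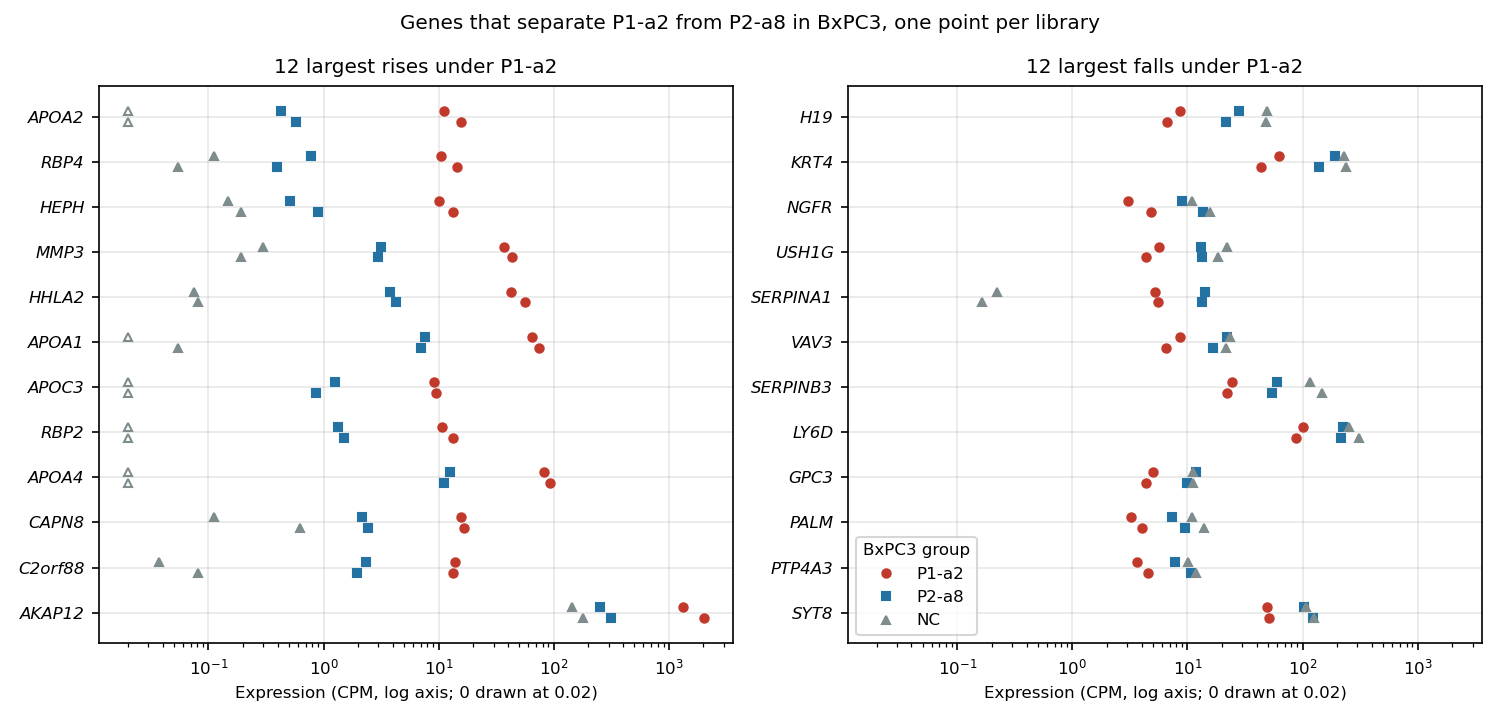
Expression in CPM on a log axis for the 12 largest rises (left) and the 12 largest falls (right) under P1-a2 against P2-a8 among called genes with a mean of at least 5 CPM and separate groups, with 1 point per BxPC3 library (P1-a2 red circles, P2-a8 blue squares, NC grey triangles; open symbols at 0.02 stand for 0 CPM). APOA2 sits at 11.1 and 15.6 CPM under P1-a2 against 0.429 and 0.582 CPM under P2-a8, and SERPINA1 is the gene on the right whose NC libraries lie below both isoforms.

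Falls under P1-a2 were smaller. H19 (chromosome 11, 1995176 to 2001470), an imprinted noncoding RNA, was at 8.56 and 6.68 CPM under P1-a2, 28.2 and 21.7 under P2-a8 and 49.2 and 48 in NC (log2 fold change -1.72, SE 0.15, edgeR adjusted p 6.4e-05). KRT4 (chromosome 12, 52806549 to 52814551), a keratin of nonkeratinizing squamous epithelium, was at 61.8 and 43.7 CPM under P1-a2 and 190.1 and 139 under P2-a8 (log2 fold change -1.65, SE 0.24, edgeR adjusted p 0.0143), with an adjusted p of 0.0639 when no filter on low counts was used and 0.0552 without NC replicate 1. NGFR, the neurotrophin receptor p75, was at 3.04 and 4.84 and 8.95 and 13.6 CPM (log2 fold change -1.50, SE 0.31, edgeR adjusted p 0.0162), and its adjusted p became 0.086 without P1-a2 replicate 1. For these genes NC lay with P2-a8 or above it. USH1G, which encodes a scaffold protein of sensory hair cells, was at 5.65 and 4.33 CPM under P1-a2 and 13.1 and 13.3 under P2-a8. VAV3, an exchange factor for small GTPases, was at 8.6 and 6.49 and 22 and 16.7 CPM, and GPC3, a cell-surface proteoglycan, at 5.02 and 4.33 and 11.8 and 9.95 CPM. SERPINB3, a squamous cell carcinoma antigen with a near-identical neighbour that the counting could have split, was at 24.5 and 22.1 and 60.5 and 54.4 CPM. LY6D, a surface protein of squamous epithelium, was at 102 and 87.7 and 226 and 216 CPM. PALM, PTP4A3 and SYT8 completed the 12, with log2 fold changes of -1.21, -1.18 and -1.17. SERPINA1 (chromosome 14, 94376747 to 94390693), which encodes α1-antitrypsin, was the exception in its control level: it was at 5.18 and 5.51 CPM under P1-a2, 14.3 and 13.5 under P2-a8 and 0.223 and 0.164 in NC (log2 fold change -1.37, SE 0.13, edgeR adjusted p 6.49e-05).

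Several of these genes overlap an annotated gene on the opposite strand, among them RBP4, MMP3, HHLA2, RBP2, APOA1, APOA4, C2orf88, AKAP12, H19, NGFR, VAV3, SERPINB3 and GPC3. Of the genes named, APOB, MTTP, SLC27A4, SLC27A2, KLF5, GATA6, VILL, CYBRD1, MKI67, SREBF1, ISG20, KRT5, KRT17 and KRT19 were chosen after their values were seen. The strand setting of the counting is not given in the sources used here, so reads of such partners may be included in the counts of the overlapping genes. Of the 103 genes described for which a locus was matched, 49 overlap a gene on the opposite strand and 28 one on the same strand. Ribosomal protein genes, several keratin genes and MUC3A have near-identical copies or pseudogenes elsewhere, and their counts are uncertain if the counting split reads among them.

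Promoter sequence was examined because most of the large differences were on the P1-a2 side. HNF4α binds a direct repeat with a short spacer, and the cores CAAAGTCCA, CAAAGTTCA and CAAAGGTCA were searched on both strands of RefSeq promoters (GRCh38.p14), from 250 bases before to 50 after each gene's start. At least 1 core was found in 1.07% of the 27305 promoters in the table and in 0.807% of the 11891 that belong to tested genes. Among genes higher under P1-a2 the share was 1.8% of 1607, and with a log2 fold change of at least 1 it was 6.59% of 273 (18 promoters). Among genes lower under P1-a2 it was 0.538% of 1486, with 0 of 65 at a log2 fold change of -1 or less. Genes tested and not called held a core in 0.671% of 8798. Of the largest rises and falls, 8 of 12 and 5 of 12 had an entry in the table, and 0 of them held a core. The shares are descriptions of letters in these windows, and a match is not evidence of binding. The sequences below are the 250 bases before the start, on the gene's own strand. They belong to APOA2, the largest rise among genes with a mean of at least 5 CPM, and to 4 other genes. These 4 were called higher under P1-a2, and their promoters hold a core, which is in capitals. Promoters of 8 genes called lower also hold a core and are not printed.
APOA2: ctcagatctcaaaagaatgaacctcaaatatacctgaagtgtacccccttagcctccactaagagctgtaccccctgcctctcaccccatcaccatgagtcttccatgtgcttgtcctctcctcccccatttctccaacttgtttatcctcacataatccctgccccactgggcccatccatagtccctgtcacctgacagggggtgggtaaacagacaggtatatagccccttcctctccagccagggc
BTNL8: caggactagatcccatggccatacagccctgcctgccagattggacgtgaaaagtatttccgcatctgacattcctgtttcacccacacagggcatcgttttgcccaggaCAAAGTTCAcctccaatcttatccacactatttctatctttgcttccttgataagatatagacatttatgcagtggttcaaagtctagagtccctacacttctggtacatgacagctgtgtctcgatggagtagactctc
TM4SF5: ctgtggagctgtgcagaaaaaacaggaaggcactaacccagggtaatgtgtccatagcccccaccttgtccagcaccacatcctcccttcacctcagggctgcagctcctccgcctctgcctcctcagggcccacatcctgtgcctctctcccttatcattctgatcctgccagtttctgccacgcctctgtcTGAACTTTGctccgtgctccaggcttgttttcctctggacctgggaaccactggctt
VTN: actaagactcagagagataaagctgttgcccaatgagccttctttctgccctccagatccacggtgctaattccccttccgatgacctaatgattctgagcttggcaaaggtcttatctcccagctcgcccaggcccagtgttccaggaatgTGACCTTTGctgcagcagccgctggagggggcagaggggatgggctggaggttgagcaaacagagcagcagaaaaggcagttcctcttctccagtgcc
MUC13: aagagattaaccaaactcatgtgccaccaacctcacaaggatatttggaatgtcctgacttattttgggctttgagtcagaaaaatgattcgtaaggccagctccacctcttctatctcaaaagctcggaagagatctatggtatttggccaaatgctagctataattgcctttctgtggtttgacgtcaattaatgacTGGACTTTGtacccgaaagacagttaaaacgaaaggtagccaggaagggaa
In order, they lie at chr1:161223629-161223878 (minus strand), chr5:180898909-180899158 (plus), chr17:4771636-4771885 (plus), chr17:28370308-28370557 (minus) and chr3:124934752-124935001 (minus). The core begins 140 bases before the start in BTNL8, 57 in TM4SF5, 98 in VTN and 51 in MUC13. Among these 4 it reads on the gene's own strand only in BTNL8. BTNL8, a butyrophilin-like protein of gut epithelium, was at 2.92 and 3 CPM under P1-a2 and 0.2 and 0.49 under P2-a8 (log2 fold change 3.10). BTNL8 met the filter on low counts only with the P1-a2 libraries, so it could hardly be called lower. TM4SF5, a tetraspan membrane protein, was at 5.05 and 5.19 and 0.858 and 0.888 CPM (2.55). VTN, the plasma protein vitronectin, was at 1.91 and 2.22 and 0.486 and 0.643 CPM (1.87), and MUC13, a membrane mucin, at 138 and 149.7 and 60.4 and 63.5 CPM (1.22). All 4 were at or below 10.5 CPM in NC.

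Called genes for lipoprotein assembly and fat absorption were mostly higher under P1-a2. Of 15 apolipoprotein genes tested, 5 were higher and 2 lower, and the median log2 fold change of the list was 0.02. The 5 higher genes were APOA1, APOA2, APOA4, APOB and APOC3. APOA1, APOC3 and APOA4, which encode proteins of high-density and triglyceride-rich lipoproteins, are neighbours on chromosome 11 between 116820700 and 116837950. APOA1 was at 64.2 and 75.2 CPM under P1-a2, 7.55 and 6.98 under P2-a8 and 0 and 0.0546 in NC (log2 fold change 3.26, SE 0.12, edgeR adjusted p 1.4e-07). APOC3 was at 9.13 and 9.46 and 1.26 and 0.857 CPM (log2 fold change 3.12, SE 0.22, edgeR adjusted p 1.44e-05), and APOA4 at 81.7 and 92 and 12.5 and 11.2 CPM (log2 fold change 2.87, SE 0.10, edgeR adjusted p 1.79e-07). These 3 genes are among the largest rises, whose groups were separate by the rule that chose them. APOB, the scaffold protein of chylomicrons, was at 12.1 and 13.2 CPM under P1-a2 and 3.6 and 2.66 under P2-a8, with 0 in NC (log2 fold change 2.01).

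Of 20 genes of triglyceride packaging tested, 12 were higher under P1-a2 and 1 was lower, with a median log2 fold change of 0.90. CIDEC, a lipid-droplet protein, had 206 counts in total under P1-a2 and 3 under P2-a8, a ratio of 67.4 with a 95% interval from 22.7 to 330.0 that covers counting error only. The filter on low counts could be met through 1 group alone, and such a gene could hardly be called in the other direction. CIDEC met it through P1-a2, as did NR1I3, NR0B2 and ANKS4B, described below. BTNL8, described above, also needed the P1-a2 libraries to meet it, with 7 and 16 counts under P2-a8 and 0 in both NC libraries. Such members are part of the counts and medians of their lists. CREB3L3, a liver and gut factor that drives apolipoprotein genes, was at 3.8 and 4.84 and 0.543 and 0.398 CPM (log2 fold change 3.18). MOGAT3, an acyltransferase of triglyceride synthesis, was at 31.5 and 43.2 CPM under P1-a2, 8.12 and 9.86 under P2-a8 and 0.149 and 0 in NC (2.06). CIDEB, which acts in lipoprotein lipidation, was at 30 and 32.5 and 11.2 and 10 CPM (1.56). MTTP, the transfer protein that loads lipid onto APOB, was at 7.06 and 6.7 and 3.49 and 2.48 CPM (1.20), and SLC27A4, a fatty acid transporter, at 126 and 130.5 and 57.5 and 59.6 CPM (1.13). The lower gene was SLC27A2, at 3.42 and 2.51 CPM under P1-a2 and 5.83 and 4.59 under P2-a8 (-0.82), whose call was lost without P2-a8 replicate 1 or P1-a2 replicate 2.

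Of 46 liver plasma protein genes listed, 12 were tested, 4 were higher and 2 lower. Besides RBP4 and VTN, ANGPTL4, a secreted inhibitor of lipoprotein lipase, was at 23.4 and 29.8 CPM under P1-a2 and 6.75 and 7.01 under P2-a8 (log2 fold change 1.95), while SERPINA1 went the other way. Of 20 retinoid genes, 4 were higher and 3 lower. RBP2, which carries retinol inside enterocytes, was at 10.8 and 13.2 CPM under P1-a2, 1.34 and 1.5 under P2-a8 and 0 in both NC libraries (3.08). CRABP2, which carries retinoic acid to the nucleus, was at 59.6 and 61.6 and 106 and 106 CPM (-0.80), and ADH7, a retinol-oxidizing dehydrogenase, at 2.32 and 1.43 and 6.84 and 4.72 CPM (-1.64). The count of lower retinoid genes became 5 with no filter on low counts, and that of lower plasma protein genes became 1 with DESeq2 or without P1-a2 replicate 1, P2-a8 replicate 1 or P1-a2 replicate 2.

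Among 35 nuclear receptor genes, 6 were higher and 6 lower under P1-a2. NR1I3, the xenobiotic receptor CAR, had 253 counts in total under P1-a2 and 3 under P2-a8, a ratio of 82.8 with a 95% counting interval from 28.0 to 404.0. NR0B2, the repressor SHP, was at 2.85 and 2.89 CPM under P1-a2, 0.114 and 0.153 under P2-a8 and 0 in NC (log2 fold change 4.39, SE 0.38, edgeR adjusted p 5.53e-05). RARG, a retinoic acid receptor, was at 110.5 and 91.1 and 178 and 174 CPM (log2 fold change -0.80), and THRA, a thyroid hormone receptor, at 18 and 18.8 and 31.9 and 31.1 CPM (-0.78). The 26 endoderm transcription factors gave 5 higher and 5 lower. MLXIPL, a glucose-sensing factor of liver, was at 17.8 and 27.4 CPM under P1-a2 and 8.55 and 8.63 under P2-a8 (1.40). KLF5, a factor of proliferating epithelium, was at 378 and 316 and 564 and 499.6 CPM (-0.61), and GATA6, a factor of the classical PDAC subtype, at 50.9 and 54.9 and 66.2 and 75.7 CPM (-0.42). Without P2-a8 replicate 1 the endoderm list gave 2 higher genes, and without P1-a2 replicate 2 it gave 3 higher and 3 lower. The lower count of nuclear receptors became 3 without either of these libraries.

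Called genes of the absorptive intestinal cell were mostly higher under P1-a2. Of 22 brush border genes tested, 10 were higher and 1 lower, with a median log2 fold change of 0.34. VIL1, which bundles the actin core of microvilli, was at 64.6 and 79.8 CPM under P1-a2, 11.9 and 16.8 under P2-a8 and 0.521 and 0.328 in NC (log2 fold change 2.33, SE 0.17, edgeR adjusted p 0.000113). ANKS4B, which links the microvillar tips, was at 3.11 and 2.92 and 0.286 and 0.184 CPM (3.65). EPS8L3 was at 8.16 and 8.41 and 1.54 and 1.44 CPM (2.47), and MYO1A, the brush border myosin, at 8 and 6.92 and 1.8 and 2.02 CPM (1.96). VILL, a villin-like gene, was the 1 lower, at 47.3 and 48.1 and 73.3 and 78.6 CPM (-0.67). Each of these genes had both P1-a2 libraries on the same side of both P2-a8 libraries. Among all genes tested, 29.5% had them above and 31% below.

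Digestive and transport genes showed 12 higher and 1 lower of 25 tested, with a median of 0.83 on the log2 scale. SLC15A1, the intestinal peptide transporter, was at 34.8 and 43.3 CPM under P1-a2, 6.55 and 8.11 under P2-a8 and 0.149 and 0.355 in NC (log2 fold change 2.42, SE 0.15, edgeR adjusted p 8.22e-06). XPNPEP2, a membrane peptidase, was at 3.33 and 3.89 and 0.858 and 1.16 CPM (1.84). The lower gene was CYBRD1, a ferric reductase of iron uptake, at 13.2 and 14 CPM under P1-a2 and 22.4 and 22.7 under P2-a8 (-0.73), so that the iron exporter partner HEPH and this uptake gene differed in opposite directions. Of 49 xenobiotic genes, 11 were higher and 4 lower. The organic anion transporter SLCO2B1 was at 68.1 and 79.3 CPM under P1-a2, 16.4 and 15.6 under P2-a8 and 0.112 and 0.0273 in NC (2.20). ABCG2, a drug efflux pump, was at 25.4 and 26.5 and 9.87 and 11.1 CPM (1.31), and SULT1C2, a sulfotransferase, at 6.65 and 7.81 and 2.83 and 3.28 CPM (1.25). The count of higher xenobiotic genes became 6 without P1-a2 replicate 2 and 7 without P2-a8 replicate 2, and that of lower ones became 2 without P2-a8 replicate 1 or P1-a2 replicate 2 and 1 without P2-a8 replicate 2.

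Of 18 mucin and trefoil factor genes, 3 were higher and 4 lower under P1-a2, beside 11.6% and 10.8% of all genes tested, and 11 did not pass. MUC3A, an intestinal membrane mucin, was at 31 and 35.1 CPM under P1-a2 and 10.7 and 8.94 under P2-a8 (log2 fold change 1.75). MUC17, a membrane mucin of enterocytes, was at 53 and 74.3 and 29.5 and 34.5 CPM (0.99, adjusted p 0.0129 by edgeR), and its call was lost without P2-a8 replicate 1 or 2. MUC4, a membrane mucin common in PDAC, was at 17.2 and 17.4 CPM under P1-a2, 31.1 and 36.9 under P2-a8 and 69.2 and 83.2 in NC (-0.97). The count of lower mucins became 2 without P1-a2 replicate 2.

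**Figure D2:**
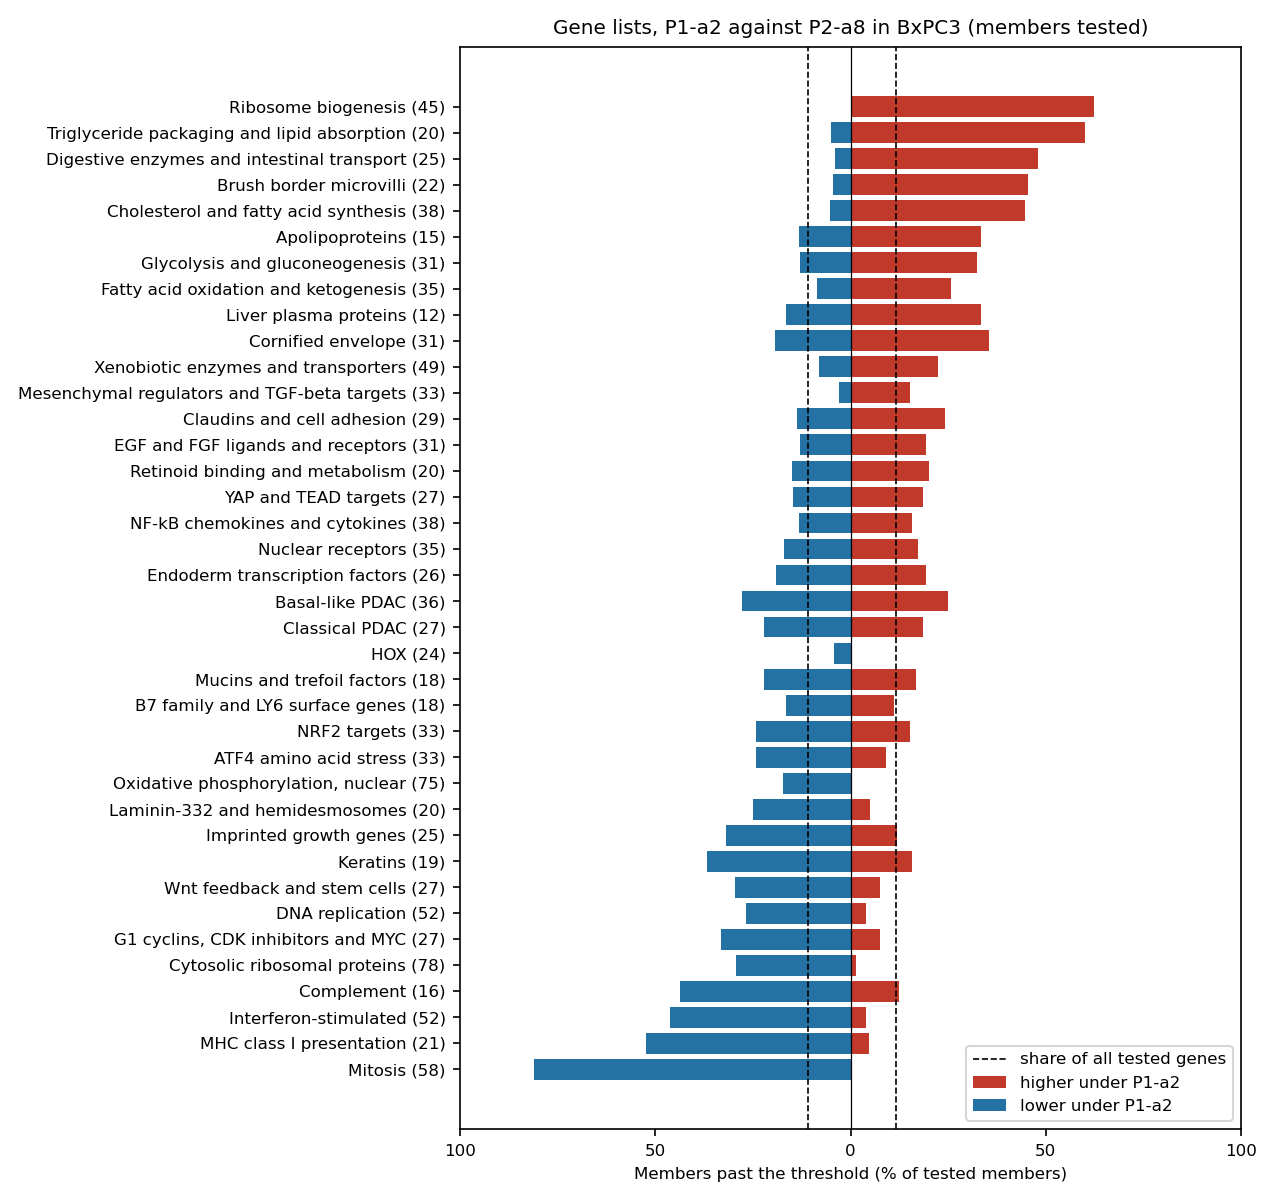
Share of the tested members of each gene list that were past the threshold, higher under P1-a2 to the right (red) and lower to the left (blue), with the number of tested members in brackets; dashed lines mark 11.6% and 10.8%, the shares among all tested genes. Ribosome biogenesis (28 of 45 higher) and mitosis (47 of 58 lower) are at the ends.

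Mitosis had the largest share of called members among the lists shown in the plot of list shares. Of 58 tested, 47 were lower and 0 higher, with a median log2 fold change of -0.48, and NC was closer to P2-a8 for the genes named. SPC24, a kinetochore subunit, was at 10.6 and 11.2 CPM under P1-a2, 19.8 and 19.4 under P2-a8 and 19.1 and 15.9 in NC (log2 fold change -0.85, SE 0.11, edgeR adjusted p 0.000394). KIF15, a spindle kinesin, was at 21.3 and 23.4 and 34.1 and 39.5 CPM (log2 fold change -0.72, SE 0.09, edgeR adjusted p 0.000314), NUF2, another kinetochore subunit, at 15.2 and 16.1 and 23.4 and 28 CPM, and TTK, the checkpoint kinase MPS1, at 36.7 and 35.9 and 54.6 and 58.9 CPM. MKI67, the proliferation marker Ki-67, was at 567 and 597 CPM under P1-a2 and 717 and 829 under P2-a8 (-0.41). Of 52 replication genes, 14 were lower and 2 higher, with a median of -0.21. TYMS, which makes thymidylate, was at 62.4 and 55.2 and 85.4 and 77.4 CPM (-0.47), while CCNE1, the cyclin of S-phase entry, was at 20.2 and 20.7 and 14.4 and 14.3 CPM (0.51). Among 27 genes of G1 control, 2 were higher and 9 lower. CDKN1A, which encodes the inhibitor p21, was at 514 and 627 CPM under P1-a2, 298 and 355 under P2-a8 and 179.7 and 216 in NC (log2 fold change 0.81, SE 0.14, edgeR adjusted p 0.00909). The inhibitors CDKN1B and CDKN2C went the other way, at 50.2 and 44.3 and 74.9 and 68.2 CPM (-0.60) and at 12.9 and 11.3 and 20.8 and 23.7 CPM (-0.88). The count of lower replication genes depended on the libraries used: it was 5 without P2-a8 replicate 1, 6 without P1-a2 replicate 2 24 without P2-a8 replicate 2 and 27 with no filter on low counts. The higher count became 1 without P1-a2 replicate 1 or P2-a8 replicate 2. The count of lower G1 genes became 4 without P2-a8 replicate 1 and 5 without P1-a2 replicate 2, and that of higher ones became 4 without P2-a8 replicate 2 and 5 with no filter on low counts.

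Calls among genes that build ribosomes and among genes for the ribosome's own proteins lay mostly on opposite sides. Of 45 ribosome biogenesis genes, 28 were higher under P1-a2 and 0 lower, with a median log2 fold change of 0.29. RRP12, a processing factor of the ribosomal subunits, was at 70.2 and 68.9 CPM under P1-a2, 42.2 and 43.1 under P2-a8 and 46.5 and 49.1 in NC (log2 fold change 0.71, SE 0.06, edgeR adjusted p 3.88e-05). WDR12, of the large-subunit processing complex, was at 51.7 and 52.3 and 35.1 and 32.8 CPM (0.61), POLR1E, a subunit of RNA polymerase I, at 42.5 and 41.4 and 30.2 and 27.5 CPM (0.54), and BYSL, of the small-subunit pathway, at 31.7 and 33 and 20.6 and 23.4 CPM (0.56). Of 78 cytosolic ribosomal proteins, 23 were lower and 1 higher, with a median of -0.12. RPL3 was at 809 and 791 CPM under P1-a2 and 975 and 961 under P2-a8 (-0.27). These are small differences, and the lower count depended on the method: it was 13 with DESeq2, 13 in the fit of the 4 isoform libraries alone, 15 with DESeq2 size factors and 17 with total counts. Leaving out P2-a8 replicate 1, P1-a2 replicate 2 or P2-a8 replicate 2 gave 5, 6 and 6, leaving out P1-a2 replicate 1 gave 15, and leaving out either NC library gave 13. The higher count became 0 in the fit of the 4 isoform libraries alone and when any 1 library except P1-a2 replicate 2 was left out. Nuclear genes of oxidative phosphorylation gave 13 lower and 0 higher of 75, with a median of -0.09. SDHD, of respiratory complex II, was at 88.9 and 78 and 116 and 106 CPM (-0.42). The count for this list was 8 with DESeq2, 2 without P2-a8 replicate 1, 2 without P1-a2 replicate 2 and 6 without P2-a8 replicate 2, and the higher count became 1 with no filter on low counts and without P2-a8 replicate 1 or P1-a2 replicate 2.

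**Figure D3:**
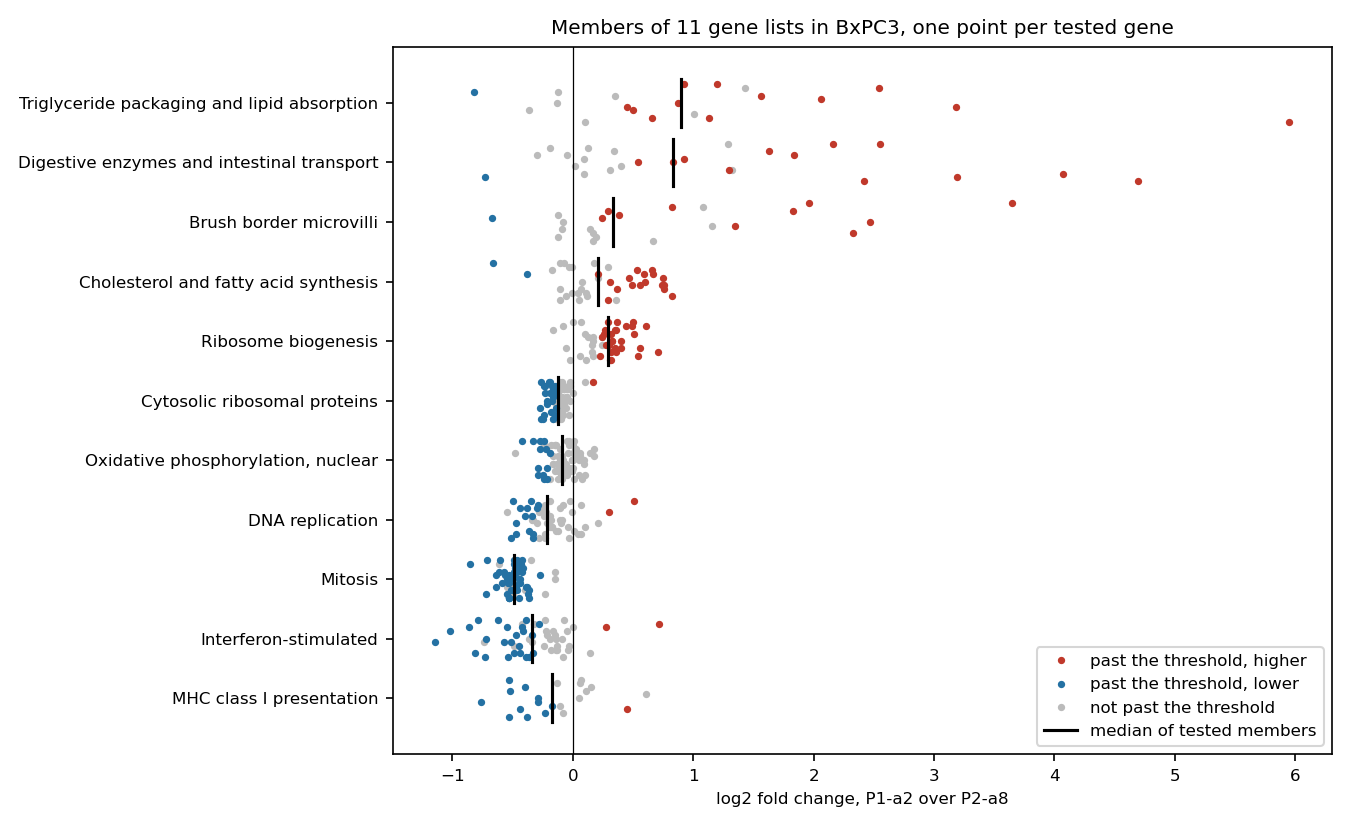
Log2 fold change of P1-a2 over P2-a8 for each tested member of 11 gene lists (red, higher; blue, lower; grey, not past the threshold; black bar, median of the list). The position of CIDEC, at the far right of the first row, rests on 3 counts under P2-a8, and mitosis members lie around a median of -0.48.

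Called genes of sterol synthesis were mostly higher under P1-a2. Of 38 genes of cholesterol and fatty acid synthesis, 17 were higher and 2 lower, with a median log2 fold change of 0.21. DHCR7, the last enzyme of cholesterol synthesis, was at 237 and 265 CPM under P1-a2, 145 and 138 under P2-a8 and 138 and 109.5 in NC (log2 fold change 0.82, SE 0.10, edgeR adjusted p 0.000869). SQLE, squalene epoxidase, was at 163 and 159.6 and 97.4 and 94.1 CPM (0.75), MSMO1 at 125 and 135 and 78.4 and 74.4 CPM (0.76), and NSDHL at 76.4 and 78 and 43.9 and 47.5 CPM (0.76), the latter pair encoding enzymes that remove methyl groups from sterols. SREBF1, the lipogenic transcription factor, was 1 of the lower genes, at 387 and 423 CPM under P1-a2 and 634 and 645 under P2-a8 (-0.66). Of 35 genes of fatty acid oxidation, 9 were higher and 3 lower. SLC25A20, which carries acylcarnitine into mitochondria, was at 20 and 20.4 and 6.92 and 7.84 CPM (1.46). Of 31 genes of glycolysis and gluconeogenesis, 10 were higher and 4 lower. LDHA, lactate dehydrogenase, was at 1092 and 1244 and 755 and 721 CPM (0.66). The count of higher glycolysis genes became 4 without P1-a2 replicate 2 and 6 without P2-a8 replicate 1. The count of lower oxidation genes became 1 with DESeq2 and when any 1 of the P1-a2 and P2-a8 libraries was left out.

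Called genes of the interferon response and of antigen presentation were mostly lower under P1-a2. Of 52 interferon-stimulated genes tested, 24 were lower and 2 higher, with a median log2 fold change of -0.34. TRIM22, an antiviral ubiquitin ligase, was at 5.02 and 5.3 CPM under P1-a2, 10.2 and 12.5 under P2-a8 and 19 and 25 in NC (log2 fold change -1.14, SE 0.16, edgeR adjusted p 0.00062). UBE2L6, the conjugating enzyme of ISG15, was at 19.6 and 20.3 CPM under P1-a2, 32.8 and 39.9 under P2-a8 and 53.6 and 63.4 in NC (-0.86). For both genes, which were named for their large change, NC was highest and P1-a2 lowest. The share of all genes tested with this order was not computed. ISG20, an antiviral exonuclease, was 1 of the higher genes, at 26.9 and 27.9 CPM under P1-a2 and 14.5 and 18.8 under P2-a8 (0.72). Among 21 genes of MHC class I presentation, 11 were lower and 1 higher, and PSMB9, a subunit of the immunoproteasome, was at 8.28 and 8.68 and 13.4 and 15.3 CPM (-0.76). Complement genes gave 7 lower and 2 higher of 16. C1R, a protease of the classical pathway, was at 2.2 and 2.84 CPM under P1-a2, 6.03 and 7.65 under P2-a8 and 12 and 15.1 in NC (-1.43), while CFI, a complement inhibitor, was at 3.04 and 3.14 and 1.32 and 0.827 CPM (1.52). The lower counts became 15 for interferon genes and 5 for MHC class I genes without P2-a8 replicate 2, 6 for MHC class I genes without P1-a2 replicate 2, and 4 for complement without either P2-a8 library. The higher count for complement became 1 without P1-a2 replicate 2. Without P2-a8 replicate 1 or P1-a2 replicate 2 the higher count became 1 for interferon genes and 0 for MHC class I genes.

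Of 38 genes of the NF-kB list, 6 were higher and 5 lower, shares near the 11.6% and 10.8% of all genes tested. With the replicate number as a block in the fit, 15 were higher and 7 lower, while 5992 of all genes tested passed. CCL20, a chemokine of gut epithelium, was at 4.77 and 7.57 CPM under P1-a2, 1.32 and 1.04 under P2-a8 and 1.67 and 2.13 in NC (log2 fold change 2.39, SE 0.27, edgeR adjusted p 0.000163), and CSF2, the growth factor GM-CSF, at 1.57 and 2.22 and 0.2 and 0.551 CPM (log2 fold change 2.34). The higher count of this list was 3 without P2-a8 replicate 1 and 10 without P2-a8 replicate 2, and its lower count was 2 without either P1-a2 library or without P2-a8 replicate 2 and 3 without P2-a8 replicate 1. Of 18 B7 and LY6 family genes, 2 were higher, HHLA2 and CD274, and 3 lower, also near those shares, and the lower count became 5 with no filter on low counts. CD274, which encodes the ligand PD-L1, was at 11.1 and 11.2 CPM under P1-a2, 6.03 and 6.37 under P2-a8 and 8.55 and 9.48 in NC (0.85), so NC lay between the isoforms.

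Lists for epithelial state held calls in both directions. Of 27 genes of the classical PDAC subtype, 5 were higher and 6 lower, and of 36 basal-like genes 9 were higher and 10 lower. Members of each list went both ways. Within the classical list, CAPN8 and BTNL8 were higher, while CEACAM5, an adhesion glycoprotein, was at 56.6 and 45.6 CPM under P1-a2, 95.7 and 78.6 under P2-a8 and 179 and 184 in NC (log2 fold change -0.77), and VSIG2, a surface protein of gastric epithelium, was at 4.99 and 5.81 and 9.44 and 9.19 CPM (-0.78). Within the basal-like list, LY6D and SERPINB3 were lower, while ZEB1, a mesenchymal transcription factor, was at 1.63 and 1.87 and 0.543 and 0.521 CPM (1.71). The higher basal-like count became 4 without P2-a8 replicate 1 and 5 without P1-a2 replicate 2.

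Keratins gave 3 higher and 7 lower genes of 19. KRT18 and KRT8, partners in simple epithelium, were at 1953 and 2146 CPM under P1-a2 and 1234 and 1229 under P2-a8 (0.73), and at 3416 and 3728 and 2309 and 2325 CPM (0.62). The squamous keratin KRT13 was at 916 and 713 and 1581 and 1523 CPM (-0.93), the basal keratin KRT5 at 4798 and 4009 and 6401 and 5878 CPM (-0.48), and KRT17 at 3082 and 2889.7 and 3757 and 4208 CPM (-0.42). KRT8 and KRT18 thus differed in the opposite direction to KRT13, KRT5 and KRT17. KRT19, also of simple epithelium, did not follow KRT8 and KRT18. It was lower, at 2524 and 2449.6 CPM under P1-a2 and 3009 and 3036 under P2-a8 (-0.28). KRT81, not described further, had the largest log2 fold change of the list (1.99), and the list median was 0.02. Of 31 cornified envelope genes, 11 were higher and 6 lower. The calcium-binding protein S100A9 was at 29.5 and 24.7 and 12.5 and 10.6 CPM (1.23) and the protease KLK7 at 14.6 and 17.5 and 6.66 and 6.06 CPM (1.33), while the cross-linking enzyme TGM1 was at 4.23 and 3.68 and 7.44 and 10.3 CPM (-1.16).

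Growth factor and signalling lists held calls in both directions. Of 31 EGF and FGF family genes, 6 were higher and 4 lower. FGFR3, a receptor kinase, was at 57.5 and 53.2 CPM under P1-a2, 123 and 115 under P2-a8 and 125 and 116 in NC (log2 fold change -1.10, SE 0.07, edgeR adjusted p 5.57e-06), and SPRY4, a feedback inhibitor of such receptors, at 30.1 and 32.7 and 10.8 and 12.8 CPM (log2 fold change 1.41, SE 0.11, edgeR adjusted p 1.44e-05). Of 27 Wnt genes, 2 were higher and 8 lower: the Wnt inhibitor DKK4 was at 5.24 and 6.6 and 1.37 and 1.29 CPM (2.15) and the ligand WNT10A at 25.3 and 23.6 and 39.9 and 54.3 CPM (-0.94). The imprinted growth list gave 3 higher and 8 lower of 25, with INSR, the insulin receptor, at 9.76 and 10.3 CPM under P1-a2 and 5.66 and 3.8 under P2-a8 (1.08). The NRF2 list gave 5 higher and 8 lower of 33, with HMOX1, heme oxygenase, at 28.3 and 34.5 and 8.87 and 9.58 CPM (1.77), and the ATF4 list 3 and 8 of 33, with PHGDH, of serine synthesis, at 33.3 and 27.9 and 54.2 and 48.3 CPM (-0.75). Leaving out P1-a2 replicate 2 gave 4 lower Wnt genes and 2 lower EGF and FGF genes, leaving out P2-a8 replicate 2 gave 4 lower Wnt genes, and leaving out P2-a8 replicate 1 gave 2 lower EGF and FGF genes and 5 lower NRF2 genes. Without P1-a2 replicate 1 the imprinted list gave 5 lower genes. The count of higher Wnt genes became 1 without P2-a8 replicate 1 or P1-a2 replicate 2.

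The remaining lists are given by their counts, to be read against 11.6% higher and 10.8% lower among all tested genes. Of 29 claudin and adhesion genes, 7 were higher and 4 lower, and of 20 laminin and hemidesmosome genes, 1 was higher and 5 lower. Mesenchymal and TGF-beta genes gave 5 higher and 1 lower of 33, YAP targets 5 and 4 of 27, and HOX genes 0 and 1 of 24. The HOX gene was HOXB3, at 7.47 and 7.92 CPM under P1-a2 and 12.4 and 9.65 under P2-a8 (log2 fold change -0.52), and it lost its call without P1-a2 replicate 1, P2-a8 replicate 1 or P1-a2 replicate 2. LAMA5, a laminin chain of epithelial basement membrane, was at 740.1 and 801 and 1039 and 1108 CPM (-0.48). The count of lower laminin genes became 2 without P1-a2 replicate 1 and 1 without P2-a8 replicate 2, and that of lower claudin and adhesion genes became 2 without P2-a8 replicate 1 or P1-a2 replicate 2. The count of higher mesenchymal genes became 3 without P1-a2 replicate 1 or P2-a8 replicate 1, and that of the lower ones 2 without P2-a8 replicate 1 or P1-a2 replicate 2 and 3 with no filter on low counts. The count of higher YAP targets became 2 and 3 without P2-a8 replicate 1 and 2, and that of lower ones became 2 without P1-a2 replicate 1, 1 without P2-a8 replicate 2 and 7 with no filter. With 1 library left out, the count of higher laminin genes ranged from 0 without P2-a8 replicate 1 to 4 without P2-a8 replicate 2. With the replicate number as a block in the fit, this list gave 6 higher and 10 lower.

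The isoform difference in BxPC3 was set beside that in Panc10.05, which also had 2 libraries each of P1-a2 and P2-a8 but received doxycycline at 25 ng/mL for P1-a2 and 12.5 ng/mL for P2-a8. The 2 NC libraries of Panc10.05, labelled GFP in the titles where those of BxPC3 are labelled EV, received 25 ng/mL. Line, dose, control construct and sequencing project change together between these data and cannot be told apart. The difference between the lines was tested over 19372 genes in a joint fit of 12 libraries, and 4318 (22.3%) were past the threshold, 2611 (13.5%) with a higher and 1707 (8.81%) with a lower P1-a2 to P2-a8 ratio in BxPC3. HNF4A itself was at 10.3 and 12.5 CPM under P1-a2, beside 36.0 and 36.1 CPM under P2-a8, in Panc10.05, and its isoform difference differed between the lines (difference 1.33, SE 0.21, edgeR adjusted p 0.000171).

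The apolipoprotein neighbours on chromosome 11 had opposite isoform differences in the lines. In Panc10.05, APOA1 was at 3.8 and 7.65 CPM under P1-a2 and 34.1 and 34 under P2-a8, a log2 fold change of -2.55 where BxPC3 had 3.26 (difference 5.81, SE 0.41, edgeR adjusted p 5.47e-05). APOA4 was at 0.397 and 0.774 and 2.56 and 2.13 CPM in Panc10.05 (difference 4.84, SE 0.25, edgeR adjusted p 7.57e-11), and APOC3 at 0.273 and 0.356 and 1.47 and 0.838 CPM (difference 5.01, SE 0.43, edgeR adjusted p 3.5e-08). HEPH, RBP2 and CAPN8 were also lower under P1-a2 in Panc10.05, with log2 fold changes of -1.52, -1.36 and -1.60 and differences between the lines of 5.59, 4.44 and 4.42 (adjusted p 3.59e-09, 1.8e-07 and 1.88e-10, edgeR). In Panc10.05, HEPH was low, at 0.248 and 0.418 CPM under P1-a2 and 0.982 and 0.973 under P2-a8. RBP2 was also low there, at 0.273 and 0.272 and 0.552 and 0.892 CPM, and CAPN8 was at 7.02 and 5.65 and 18.7 and 19.5 CPM. SLC15A1 was at 23.7 and 28.8 and 39 and 43.4 CPM in Panc10.05 (difference 3.06, SE 0.19, edgeR adjusted p 3.47e-09), and SQLE at 109 and 105 and 167 and 187 CPM (difference 1.48, SE 0.10, edgeR adjusted p 7.22e-10). These genes lie in the lower right of the plot of both lines.

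**Figure D4:**
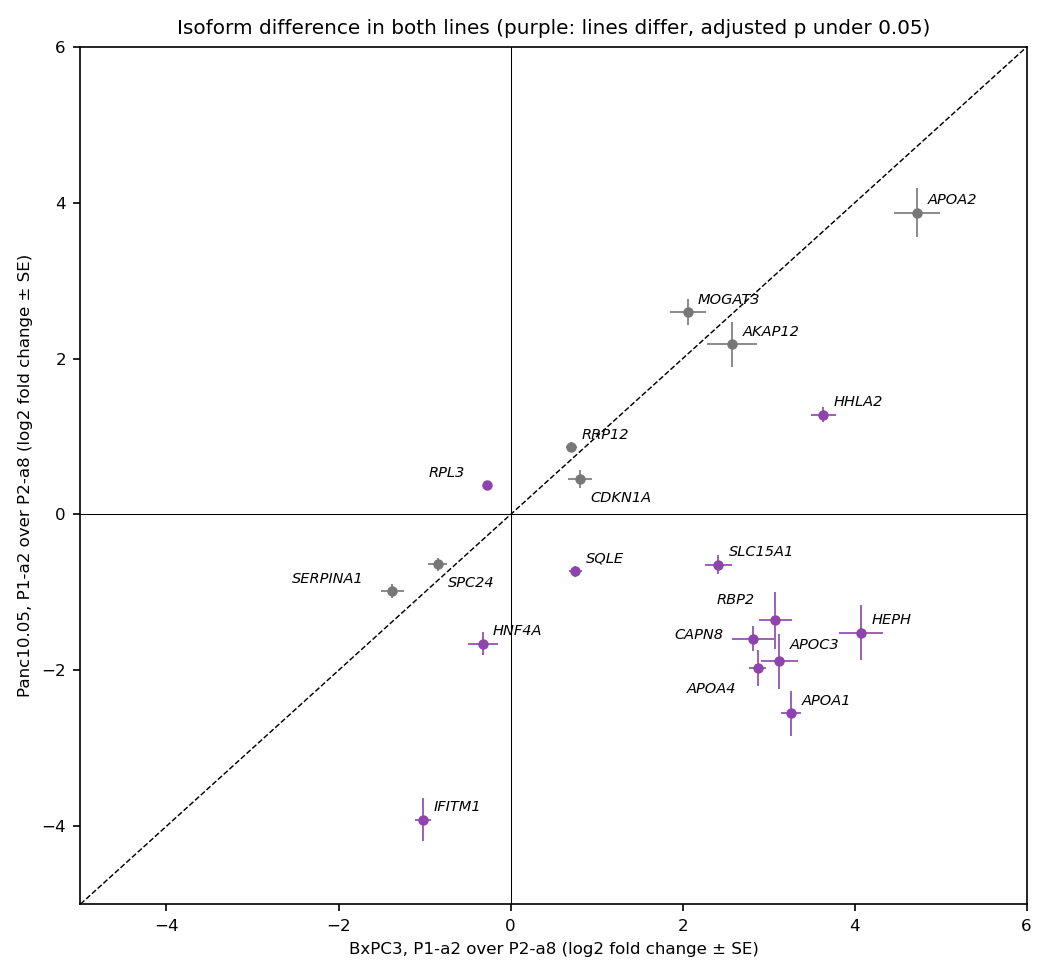
Log2 fold change of P1-a2 over P2-a8 with its SE in BxPC3 (horizontal) and in Panc10.05 (vertical) for 19 genes named in the text; purple genes differed between the lines at an adjusted p under 0.05, and the dashed line marks equal differences. APOA2 lies near the line at 4.72 and 3.87, whereas APOA1 lies at 3.26 and -2.55.

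Other genes had the same direction in both lines. APOA2 was at 251 and 225 CPM under P1-a2 and 21 and 11 under P2-a8 in Panc10.05, and its difference between the lines did not pass (difference 0.86, SE 0.88, edgeR adjusted p 0.583). The same held for AKAP12 (difference 0.39, SE 0.39, edgeR adjusted p 0.566), MOGAT3 (difference -0.54, SE 0.24, edgeR adjusted p 0.126), SERPINA1 (difference -0.39, SE 0.14, edgeR adjusted p 0.0527), CDKN1A (difference 0.35, SE 0.16, edgeR adjusted p 0.174), SPC24 (difference -0.21, SE 0.13, edgeR adjusted p 0.289) and RRP12 (difference -0.16, SE 0.09, edgeR adjusted p 0.209), although a p that misses the threshold does not show that the differences were equal. HHLA2 was higher under P1-a2 in both lines but by less in Panc10.05, at 65 and 67.2 and 26.6 and 27.9 CPM (difference 2.35, SE 0.16, edgeR adjusted p 8.51e-10). IFITM1, an interferon-induced membrane protein with close paralogs, was at 26.1 and 24.8 CPM under P1-a2 and 47.4 and 55.4 under P2-a8 in BxPC3 and at 0.571 and 0.711 and 8.26 and 11.6 CPM in Panc10.05 (difference 2.90, SE 0.34, edgeR adjusted p 0.00013). RPL3 was lower under P1-a2 in BxPC3 and higher in Panc10.05, at 1135 and 1158 and 882 and 883 CPM (difference -0.65, SE 0.08, edgeR adjusted p 1.04e-06). The counts by list are to be read against 13.5% of all genes with a higher and 8.81% with a lower ratio in BxPC3. The ratio was lower in BxPC3 for 75 of 78 ribosomal protein genes, 24 of 75 oxidative phosphorylation genes and 16 of 45 ribosome biogenesis genes, and it was higher for 0, 0 and 1 of them. It was higher in BxPC3 for 45 of 52 interferon genes, 30 of 38 genes of cholesterol and fatty acid synthesis and 20 of 58 mitotic genes, and lower for 0, 1 and 0 of them. In the joint fit, some list medians had 1 direction in BxPC3 and Panc10.05: interferon (-0.34 and -1.44), mitosis (-0.49 and -0.79) and ribosome biogenesis (0.29 and 0.42). Others had opposite directions: cholesterol and fatty acid synthesis (0.21 and -0.55), ribosomal proteins (-0.12 and 0.29) and oxidative phosphorylation (-0.09 and 0.1).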

How the data were processed

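Poly(A) RNA of BxPC3 cells was sequenced in 6 libraries, which the labels place in P1-a2, P2-a8 and NC with 2 each. The authors deposited raw counts, 1 whole number for each of 62703 Ensembl identifiers in each library. The submitters' processing notes name GRCh38, cutadapt 1.16, STAR 2.7.9a, featureCounts 1.6.3 and DESeq2 1.36.0 without their roles, and the strand setting and annotation are not given in the sources used here. Symbols were matched for 99.88% of identifiers, and coordinates are those of GENCODE on GRCh38.

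From the counts, genes were filtered with filterByExpr, scaled with edgeR's TMM method, and tested with edgeR 4.0.16 (quasi-likelihood F test, robust fit, R 4.3.3) on all 6 libraries, contrast P1-a2 minus P2-a8, with Benjamini-Hochberg adjustment over the 17635 genes tested and a threshold of 0.05. The standard error (SE) is the absolute log2 fold change over the square root of F. CPM are TMM-scaled. A gene at 3 counts or fewer per library under P2-a8 is given by counts, with an exact interval of the ratio. The difference between lines was the interaction in a joint fit of 12 libraries. The fit was tested on simulated counts. Alternatives were DESeq2 1.42.0, other scalings, other filters, the 4 isoform libraries alone, an added fold limit, each library left out and a replicate block.

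Genes named are HNF4A and HNF4G, the 12 largest rises and 12 largest falls among called genes with a mean of at least 5 CPM and groups that did not overlap, and up to 4 called members per list with the largest change and at least 1 CPM, apart from those marked as chosen after their values were seen. Not every gene that the rule names is described, and a few results are not reported here. General knowledge was the source of the 43 gene lists. Members and lists were chosen with earlier results of these data known.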

Additional observations from a re-analysis of the deposited data

Results flagged for a closer look

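The isoform difference was tested between BxPC3 and Panc10.05, and it differed for 4318 genes. Among the genes described, the log2 difference between the lines (BxPC3 minus Panc10.05) was 5.81 for APOA1, 5.59 for HEPH, 5.01 for APOC3, 4.84 for APOA4, 4.44 for RBP2, 4.42 for CAPN8 and 3.06 for SLC15A1. It was 2.90 for IFITM1, 2.35 for HHLA2, 1.48 for SQLE, 1.33 for HNF4A and -0.65 for RPL3. Each is past the threshold by the interaction test of edgeR. Doxycycline dose, line, control construct and sequencing project cannot be told apart in these differences.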

How the results depend on the processing

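The number of genes past the threshold between P1-a2 and P2-a8 was 3963. Across other scalings, filters, the 4 isoform libraries alone and DESeq2 it ran from 3301 (DESeq2) to 4580 (no filter on low counts). Requiring also a log2 fold change of at least 1 in size left 526. Leaving out 1 library gave 2538 to 3640 genes. The libraries share only replicate numbers: the correlation of deviations of same-numbered libraries was 0.462 between P1-a2 and P2-a8, over 11002 genes, and with the replicate block the count was 5992, of which 3962 were among the 3963. With the block, lower ribosomal protein genes numbered 48 and lower replication genes 32. Mesenchymal genes then gave 13 higher and 8 lower, and B7 and LY6 genes 4 higher and 6 lower. Lower oxidative phosphorylation genes numbered 24 and lower nuclear receptors 12. Counts of further lists also rose with the block and are not reported here. The difference between the lines kept its count within 1.5 times under every alternative but that fold limit, which left 1078 genes; leaving out 1 library gave 3090 to 4260. HNF4A was not past the threshold under any alternative, and HNF4G passed with the block (adjusted p 0.0196, edgeR). Of 115 called genes described, 108 stayed past the threshold in every alternative other than the fold limit, and the other 7 were SLC27A2, MUC17, AKAP12, KRT4, NGFR, CD68 and HOXB3. Every gene described kept its direction between P1-a2 and P2-a8 under every alternative run. Depth limits genes at 3 counts or fewer per library, and 2 libraries per group limit the rest.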
